A study of Mus musculus with 6 samples.

Results

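B cell and plasma cell genes were examined as 9 transcripts: the antigen receptor subunits Cd79a and Cd79b, the surface proteins Ms4a1, Cd22 and Cr2, the kinase Blk, the transcription factor Pax5, and the antibody secretion genes Mzb1 and Jchain. The 9 were taken by symbol from a table of 25572 genes, and all 9 were found there. They were measured by RNA sequencing of hind limb skeletal muscle from 6 mice that had undergone hind limb ischaemia surgery 3 days earlier. The HDCKO group was 3 mice lacking histidine decarboxylase (Hdc-/-), and the WT group was 3 wild-type mice, with 1 library per mouse. Both groups had the same surgery. Unoperated muscle was not analysed here. The sources used here do not give strain, age, sex, which muscle was taken or the deleted part of Hdc.

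A B cell recognises antigen through a membrane antibody whose signal is passed into the cell by the Cd79a and Cd79b chains. Src family kinases such as Blk start that signal, and receptors such as Cd22 and Cr2 damp or strengthen it. B cells develop in bone marrow and gather in the follicles of lymph nodes and spleen, and healthy skeletal muscle has few of them. When a B cell becomes a plasma cell it switches off Pax5 and many surface genes, and turns to secreting antibody with help from Mzb1 and Jchain.

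Across the whole table the libraries differed widely. Hdc, the targeted gene, had 1.22, 2.46 and 2.52 FPKM (fragments per kilobase of gene, scaled to library depth) in HDCKO replicates 1, 2 and 3, and all were below the 7.49, 7.72 and 8.17 FPKM of the WT libraries (log2 change -1.74, limma adjusted p = 0.00334). The deleted stretch is unknown here, so residual Hdc signal does not check the deletion itself. Estimated depth was 29300000 to 37600000 fragments per library. Of 13288 genes tested, 17.8% were called higher and 42.6% lower in HDCKO (limma on log2(FPKM + 0.5), adjusted p under 0.05), and their median log2 change was -0.50. With median-of-ratios scaling these shares were 27% and 25.2% and the median was -0.01. Muscle fibre markers, which define the labelled tissue, made up 8.52% to 14.5% of the FPKM sum in HDCKO but 0.0744% to 0.290% in WT.

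The B cell genes were abundant in HDCKO replicates 2 and 3 and scarce in the other 4 libraries, HDCKO replicate 1 included. Their summed level was 80.3 and 228 FPKM in HDCKO replicates 2 and 3, against 1.17 in HDCKO replicate 1 and 1.80, 2.42 and 1.29 in WT replicates 1, 2 and 3. For all 9 genes, HDCKO replicates 2 and 3 were the highest libraries, a pattern that 5.92% of all genes tested had. All 9 were abundant enough to be tested only through these libraries. The pattern was thus largely set in advance for them, and the 5.92% is no even contrast. The groups overlapped for 8 of the 9, since HDCKO replicate 1 lay below the WT range for 6 genes, within it for 2 and above it only for Mzb1. In bulk muscle, fewer cells of a type and less RNA per cell cannot be told apart.

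**Figure D1:**
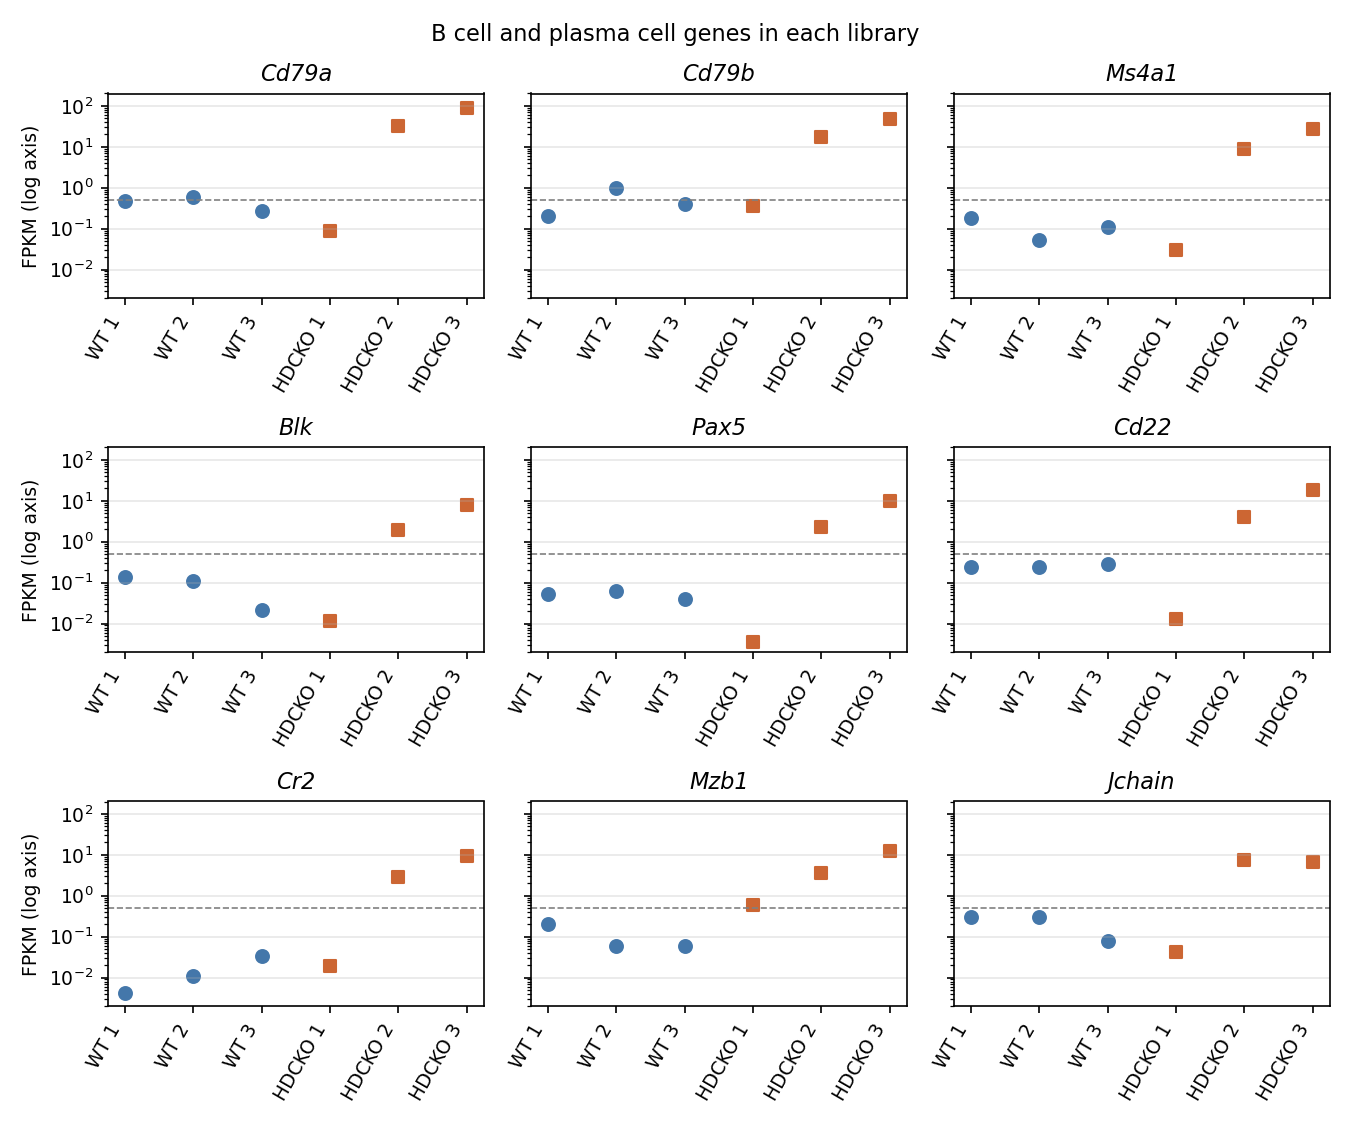
FPKM of each of the 9 genes (log axis) in WT (circles) and HDCKO (squares) libraries, numbered by replicate; 1 point is 1 library, and the dashed line marks 0.5 FPKM. HDCKO 2 and HDCKO 3 stand far above the other 4 libraries in every panel, and HDCKO 1 lies among or below the WT libraries except for Mzb1.

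In HDCKO replicates 2 and 3 the receptor subunits had the highest levels of the 9 genes. Cd79a, which carries the receptor's signal inward, had 0.0870, 31.5 and 87.1 FPKM in the HDCKO libraries, listed here and throughout as replicates 1, 2 and 3, and 0.469, 0.592 and 0.269 FPKM in the WT libraries. Its HDCKO replicate 3 value was 147 times the highest WT value and that of replicate 2 was 53.3 times, while replicate 1 was below every WT library. The log2 change was 3.66 (SE 1.78, limma adjusted p = 0.115), so the difference did not exceed the spread among HDCKO libraries. Its partner Cd79b had 0.354, 17.7 and 48.7 FPKM in the HDCKO libraries and 0.203, 0.985 and 0.394 in the WT libraries. Here HDCKO replicate 1 lay inside the WT range, and the log2 change of 3.23 (SE 1.44) had an adjusted p = 0.0929.

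Cd79a (ENSMUSG00000003379) lies on chromosome 7, 24596740 to 24601622, plus strand, in GRCm39, and Jchain (ENSMUSG00000067149) lies on chromosome 5, 88667668 to 88675750, minus strand; both code for proteins. RefSeq promoter sequences (GRCm38.p6, another build than that of the study) were matched for 5 of the 9 genes: Cd79a, Pax5, Cd22, Cr2 and Jchain. The 250 bases before the start site are printed below for Cd79a, the most abundant of the 9 in those libraries, for Cd22, with the largest fold between HDCKO replicates 3 and 2, and for Jchain, the only gene that was not highest in HDCKO replicate 3. They were searched on both strands for motifs of B lineage factors: the octamer ATGCAAAT, CCCNNGGG for EBF and CAGGTG for E2A. Capitals mark the matches.
Cd79a, chr7:24897247-24897496, plus strand: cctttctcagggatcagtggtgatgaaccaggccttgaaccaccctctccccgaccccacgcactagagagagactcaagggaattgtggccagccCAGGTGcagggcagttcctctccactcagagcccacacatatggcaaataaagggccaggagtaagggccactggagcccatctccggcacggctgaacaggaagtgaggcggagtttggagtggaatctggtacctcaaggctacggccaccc
Cd22, chr7:30879029-30879278, minus strand: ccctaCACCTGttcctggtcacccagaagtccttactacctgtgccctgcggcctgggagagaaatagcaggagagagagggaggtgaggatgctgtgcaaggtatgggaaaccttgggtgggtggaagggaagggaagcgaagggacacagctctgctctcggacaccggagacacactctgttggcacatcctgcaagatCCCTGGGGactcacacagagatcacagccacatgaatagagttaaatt
Jchain, chr5:88527898-88528147, minus strand: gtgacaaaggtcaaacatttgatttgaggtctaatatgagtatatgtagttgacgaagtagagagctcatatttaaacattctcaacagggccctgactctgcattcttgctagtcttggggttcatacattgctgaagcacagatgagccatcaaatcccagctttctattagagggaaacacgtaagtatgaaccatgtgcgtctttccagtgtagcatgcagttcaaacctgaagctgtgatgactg
The Cd79a window had 1 match, to the E2A motif, at positions -154 to -149 from the start site. In the Cd22 window there was an EBF match at positions -48 to -41 and an E2A match on the opposite strand. None of the 3 motifs matched in the Jchain or Pax5 window, and Cr2 had an E2A match on the opposite strand. Over 32851 RefSeq promoter windows of the same length, 1.60% had the octamer, 11.8% the EBF motif and 17.2% the E2A motif. A match describes the letters only.

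The surface proteins were also highest in HDCKO replicate 3, then in HDCKO replicate 2. Ms4a1, which encodes the B cell surface protein CD20, had 0.0293, 8.92 and 27.3 FPKM in the HDCKO libraries, while the WT libraries had 0.179, 0.0543 and 0.109. Its log2 change was 3.08 (SE 1.38, limma adjusted p = 0.0930). Cd22, an inhibitory receptor of B cells, was at 0.0126, 4.03 and 17.997 FPKM in HDCKO and 0.245, 0.235 and 0.282 in WT. WT values of Cd22 lay close together (0.254 ± 0.0246, SD, n = 3), while those of HDCKO spread from far below to far above them, and the log2 change was 2.22 (SE 1.21, adjusted p = 0.152). Cr2, the complement receptor of mature B cells and of follicular dendritic cells, was at 0.0196, 2.94 and 9.60 FPKM in HDCKO and 0.00423, 0.0109 and 0.0328 in WT. At those WT levels Cr2 rested on an estimated 1.1 to 9.9 fragments per library, and its log2 change was 2.35 (SE 1.01, adjusted p = 0.0850).

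The kinase and the transcription factor were at lower levels. Blk had 0.0117, 1.90 and 7.83 FPKM in HDCKO and 0.139, 0.109 and 0.0218 in WT, and its log2 change was 1.89 (SE 0.95, adjusted p = 0.124). Pax5, which holds cells in the B cell fate, had 0.00354, 2.27 and 9.79 FPKM in HDCKO and 0.0533, 0.0623 and 0.0394 in WT, and its log2 change was 2.14 (SE 1.02, adjusted p = 0.110). In HDCKO replicate 1 each of these genes rested on an estimated 1.1 fragments, whereas in HDCKO replicate 3 the estimates were 823.6 and 3260.2.

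The antibody secretion genes each had a pattern of their own. Mzb1, a chaperone of the endoplasmic reticulum in B cells, plasma cells and plasmacytoid dendritic cells, was at 0.609, 3.63 and 12.6 FPKM in HDCKO and 0.207, 0.0595 and 0.0595 in WT. It was the only one of the 9 genes whose groups did not overlap (21.2% of all genes tested were higher without overlap), and the only one that rose (log2 change 2.69, SE 0.84, limma adjusted p = 0.0331). Mzb1 missed the threshold when HDCKO replicate 2 was left out (adjusted p = 0.0916), when any 1 WT library was left out (0.0754, 0.0884 and 0.0904 for replicates 1, 2 and 3), and with no filter on low values (0.0650). Jchain, the chain that links IgM and IgA units, was at 0.0432, 7.36 and 6.74 FPKM in HDCKO and 0.295, 0.307 and 0.0802 in WT. Its HDCKO replicates 2 and 3 were nearly level, 24.0 and 21.9 times the highest WT value, where the 8 other genes were 2.75 to 4.47 times higher in replicate 3 than in replicate 2. The log2 change of Jchain was 2.13 (SE 1.03, adjusted p = 0.115).

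In the comparison of genotypes, 1 of the 9 genes was called higher, against 17.8% of all genes tested, and 0 lower, against 42.6% (limma; 1 higher and 0 lower at an unadjusted p under 0.05). All 9 log2 changes were positive, with a median of 2.35, against -0.50 over all genes tested. The count turned on single libraries. Without HDCKO replicate 1 all 9 passed, with changes of 2.93 to 5.83 and limma adjusted p from 0.000501 to 0.00927, against 17.3% of all genes called higher and 33.2% lower. When HDCKO replicate 2 was left out 0 passed (1 at an unadjusted p under 0.05), against 13.4% of all genes higher and 18.8% lower. Leaving out WT replicate 1, 2 or 3 also gave 0 (1, 0 and 1 at an unadjusted p under 0.05), with 13.7%, 14.6% and 13.9% of all genes higher and 22.7%, 23.9% and 21.2% lower. Leaving out HDCKO replicate 3 kept the count at 1, with 18.6% of all genes higher and 54.7% lower. With no filter the count was 0 (10.6% of all genes higher, 21.1% lower), and after quantile normalization it was 1 (23.6% and 30.3%). With sample weights, which put nearly all weight on HDCKO replicate 2, 9 were called (25.8% and 62%), and with a replicate block 1 (15.7% and 38.3%). The 9 genes reached the mean of 0.5 FPKM required for testing only through HDCKO replicates 2 and 3: over the other 4 libraries every mean was below 0.5 FPKM.

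**Figure D2:**
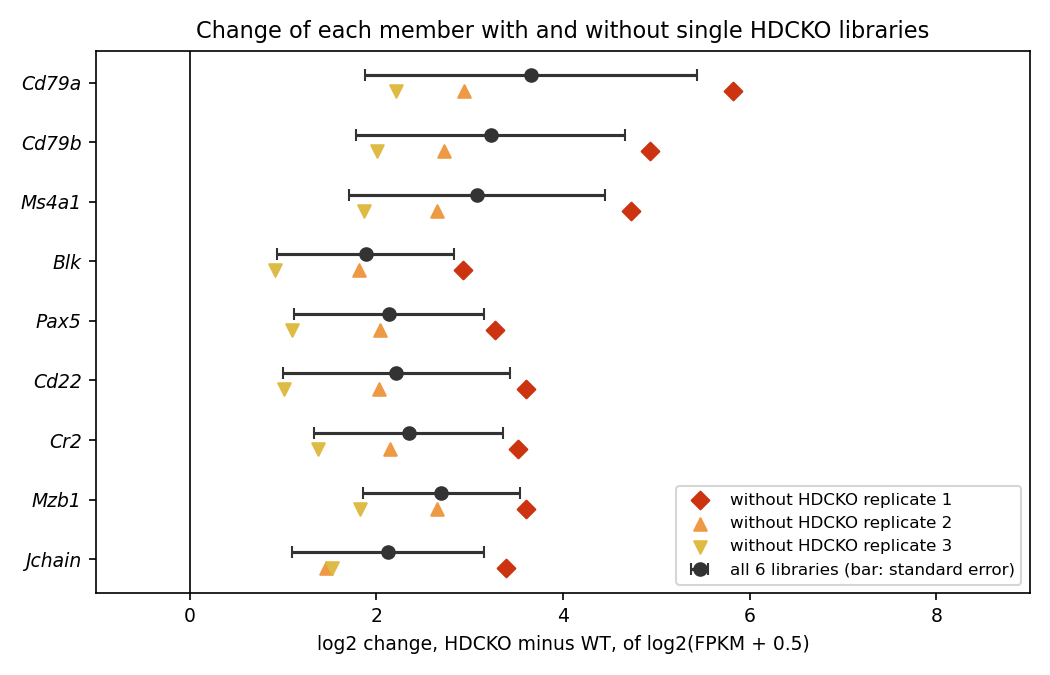
Log2 change (HDCKO minus WT, of log2(FPKM + 0.5)) of each gene over all 6 libraries, with its standard error as a bar, and without each HDCKO library in turn. Leaving out HDCKO replicate 1 moves every gene to the right, up to 5.83 for Cd79a, and leaving out HDCKO replicate 3 lowers every change, down to 0.92 for Blk.

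Levels were next set against Ptprc, which encodes CD45 of all leukocytes. A plain ratio within a library does not move with scaling between libraries, but a ratio with 0.5 FPKM added to each value can. Ptprc itself was at 1.10, 16.0 and 48.7 FPKM in HDCKO and 41.4, 90.3 and 45.2 in WT. HDCKO replicate 3 thus had as much Ptprc as WT replicates 1 and 3, but very different B cell genes. Cd79a amounted to 7.92%, 197% and 179% of Ptprc in the HDCKO libraries, and in the WT libraries to 1.13%, 0.656% and 0.596%. Ms4a1 amounted to 2.66%, 55.7% and 56.0% in HDCKO and 0.432%, 0.0601% and 0.241% in WT. For all 9 genes the log2 ratio to Ptprc, each value with 0.5 added, was higher in every HDCKO library than in any WT library, by 4.24 for Blk up to 6.02 for Cd79a on average. Each exact two-sided permutation test gave p = 0.1, the smallest that 3 against 3 allows. The log2 ratio in HDCKO replicate 1 rests on an estimated 1.1 to 30.1 fragments per gene and on the added 0.5 FPKM. In the WT libraries it rests on an estimated 1.1 to 52.4 fragments per gene and on the same 0.5 FPKM. Where a gene lay far below 0.5 FPKM, this ratio mostly followed Ptprc. Neutrophil markers, whose cells also express Ptprc, were lower in every HDCKO library (summed level 32.4 to 69.9 FPKM against 2415 to 14350 in WT), and their part in the ratio was not tested.

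Relative to Cd79a, most of the other genes had similar or higher shares in HDCKO replicate 3 than in replicate 2, and Jchain a lower one. Cd79b stood at 56.2% and 55.9% of Cd79a in these libraries, and Ms4a1 at 28.3% and 31.3%. Cr2 was at 9.32% and 11.02% of Cd79a, Mzb1 at 11.5% and 14.5%, and Blk at 6.04% and 8.99%. Pax5 went from 7.19% to 11.2% and Cd22 from 12.8% to 20.7%. Jchain went the other way, from 23.3% of Cd79a in replicate 2 to 7.74% in replicate 3. In WT it was at 62.9%, 51.9% and 29.8%, with both genes near the floor. The log2 ratio of Jchain to Cd79a differed by -1.54 between HDCKO and WT (exact two-sided permutation test, p = 0.4), which is within the spread among the HDCKO libraries.

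The ratio of HDCKO replicate 3 to replicate 2 was not the same for all marker lists. Its median was 3.27 for the 9 genes, 1.79 for 14 T cell markers, 2.59 for 8 pan-leukocyte genes, 2.95 for 9 macrophage markers and 3.26 for 5 plasmacytoid dendritic cell markers. It was 1.33 for follicular dendritic cell markers, 0.909 for lymph node stroma and high endothelial venule markers, 0.550 for adipocyte markers and 0.598 for fibre markers, and 1.25 for all genes with a value in replicate 2. These ratios compare a pair of libraries and carry no replicate check.

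**Figure D3:**
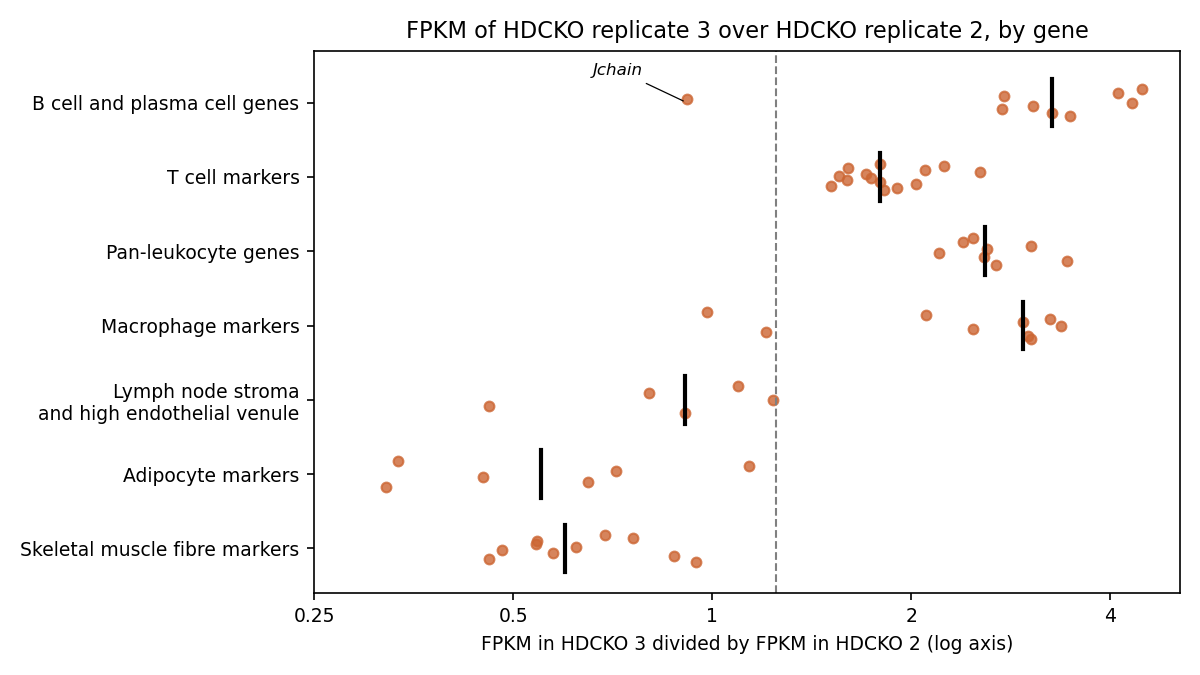
FPKM in HDCKO replicate 3 divided by FPKM in HDCKO replicate 2 (log axis), 1 point per gene, for the B cell genes and marker lists of other cells; black bars are list medians and the dashed line is the median of all genes, 1.25. B cell genes lie at 2.75 to 4.47 except Jchain at 0.916, and T cell markers lie lower, around 1.79.

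Of 95 other genes of B cell biology, 80 were in the table and 67 were tested; 6 were called higher (17.8% of all genes) and 21 lower (42.6%), with a median log2 change of -0.85. Without HDCKO replicate 1, 22 were called higher and 20 lower (17.3% and 33.2% of all genes). Of the 67, 15 reached the level for testing only through HDCKO replicates 2 and 3. A call higher in that fit was nearly set in advance for these 15. Leaving out HDCKO replicate 2 gave 2 higher and 9 lower (13.4% and 18.8% of all genes). Leaving out WT replicate 1, 2 or 3 gave 2, 3 and 2 higher and 12, 9 and 10 lower. The shares of all genes were then 13.7%, 14.6% and 13.9% higher and 22.7%, 23.9% and 21.2% lower. Leaving out HDCKO replicate 3 gave 5 higher and 32 lower (18.6% and 54.7% of all genes). Antibody constant region genes are not analysed here. Of the called pathway genes named below, Bcl10, Mef2c, Sdc1, Xbp1, Fkbp11 and Herpud1 kept their call under all 15 alternatives. Spi1 kept it under 13, Cd38, Fcgr2b and Cd93 under 12, Lyn and Vav1 under 11, and Cd83 and Cd24a under 10.

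Among 11 surface co-receptors, 2 rose (17.8% of all genes) and 2 fell (42.6%), and the median was 1.17. Fcer2a, the low-affinity IgE receptor of mature B cells, was at 0.0898, 2.69 and 7.41 FPKM in HDCKO and 0.0744, 0.0384 and 0.0449 in WT, with HDCKO replicates 2 and 3 highest as for the 9 genes (log2 change 2.16, adjusted p = 0.0756). Cd83, an activation marker of B cells and dendritic cells, rose (2.46, adjusted p = 0.0253), as did Cd24a (1.17, 0.0370), a surface protein that muscle and other cells also carry. Fcgr2b, the inhibitory antibody receptor shared with macrophages, fell by 2.14 (adjusted p = 0.0195), and Cd38 fell by 1.58 (0.0168). Without HDCKO replicate 1, 6 of the 11 were called higher (17.3% of all genes). Of the 11, 3 were tested only through HDCKO replicates 2 and 3. Leaving out HDCKO replicate 2 gave 0 in either direction (13.4% and 18.8% of all genes), as did leaving out WT replicate 1 (13.7% and 22.7%).

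Of 17 receptor signalling genes, many of them shared with myeloid cells, 7 fell and 1 rose, with a median of -1.96. The share that fell is close to the 42.6% of all genes tested, and 17.8% of all genes rose. Lyn, a Src family kinase of B cells and myeloid cells, was at 2.79, 6.98 and 21.2 FPKM in HDCKO and 40.5, 60.04 and 43.8 in WT (fell by 2.56, adjusted p = 0.0186). The adaptor Bcl10 fell by 1.55 (adjusted p = 0.00926), and Vav1, an exchange factor of blood cells, fell by 2.92 (0.0246). Bank1, a B cell scaffold, was at 0.199, 3.84 and 11.9 FPKM in HDCKO and 0.161 to 0.2498 in WT, and did not pass (2.26, adjusted p = 0.0862). The number that fell dropped to 1 when HDCKO replicate 2 was left out (18.8% of all genes). It was also 1 without WT replicate 1, 2 or 3 (22.7%, 23.9% and 21.2% of all genes). Without HDCKO replicate 3 it was 12 (54.7% of all genes). The share of all genes called lower thus moved in the same direction.

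Of 12 B lineage transcription factors tested, 1 rose (17.8% of all genes) and 1 fell (42.6%), with a median of 0.16. Without HDCKO replicate 1, 5 were called higher (17.3% of all genes). Of the 12, 4 were tested only through HDCKO replicates 2 and 3. Without HDCKO replicate 3, 4 were called lower (54.7% of all genes) and the median was -0.13. Pou2af1, the octamer coactivator of B cells, was at 0.0680, 7.74 and 19.8 FPKM in HDCKO and 0.146, 0.284 and 0.116 in WT (2.75, adjusted p = 0.0978), and Spib was at 0.0244, 4.66 and 11.7 against 0.0700, 0.105 and 0.121 (2.42, 0.0960). Mef2c, which also acts in muscle, rose evenly in the 3 HDCKO libraries (8.95, 6.29 and 7.58 FPKM against 0.680 to 0.773; 2.73, adjusted p = 2.4e-04). Spi1, the factor PU.1 of myeloid and B cells, fell by 3.32 (adjusted p = 0.0152). Tcf3 and Ebf1 were called neither higher nor lower (-0.95, adjusted p = 0.0620, and -0.41, adjusted p = 0.0755).

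Of 12 genes of plasma cells and antibody secretion tested, 9 fell (42.6% of all genes tested) and 2 rose (17.8%), with a median of -1.38. Sdc1, the surface marker of plasma cells that epithelial and stromal cells also make, was at 5.93, 4.75 and 9.77 FPKM in HDCKO and 92.6, 91.4 and 51.2 in WT (fell by 3.44, adjusted p = 0.000973). Xbp1, the factor that enlarges the secretory pathway, fell by 1.57 (adjusted p = 0.00271), and the chaperone Fkbp11 fell by 2.71 (0.00367). Herpud1, of protein degradation at the endoplasmic reticulum, rose by 1.32 (adjusted p = 0.00207). Tnfrsf17, the survival receptor specific to plasma cells, was named after its values were seen; it was too low to test, at 0.0427, 0.349 and 0.176 FPKM in HDCKO and 0.0198 to 0.0460 in WT. Jchain and Tnfrsf17 were both higher in HDCKO replicate 2 than in replicate 3. Of the 12 tested genes of this list, 11 went the other way (median ratio of replicate 3 to replicate 2, 1.99). Mzb1 did too (3.47).

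Of 12 survival and homing genes tested, 0 rose and 1 fell (limma; also 0 and 1 at an unadjusted p under 0.05), against 17.8% and 42.6% of all genes, with a median of -0.21. With HDCKO replicate 1 left out, 5 of the 12 passed as higher and 1 as lower (17.3% and 33.2% of all genes). The median in that fit was 0.71. However, 4 of the 12 reached the level for testing only through HDCKO replicates 2 and 3. For these 4, a call higher in that fit was nearly set in advance. Dropping HDCKO replicate 3 instead gave 0 higher and 3 lower (18.6% and 54.7% of all genes). Tnfsf13b, the survival factor BAFF, fell by 1.18 (0.318, 1.76 and 1.42 FPKM against 2.72 to 3.35 in WT; adjusted p = 0.0402), a call that 7 of 15 alternatives kept. Its B cell receptor Tnfrsf13c was at 0.0149, 3.63 and 13.3 FPKM in HDCKO and 0.0138 to 0.0829 in WT (log2 change 2.52, adjusted p = 0.0917). Of 3 early B lineage genes tested, 0 rose and 1 fell (1 and 1 at an unadjusted p under 0.05). Rag1 was above 0 only in HDCKO replicate 3 (0.0199 FPKM), and Igll1 only in HDCKO replicate 2 (0.0390), both named after their values were seen. Il7r, the interleukin 7 receptor that T cells also carry, was at 0.0978, 5.80 and 12.7 FPKM in HDCKO and 9.83, 23.3 and 7.62 in WT (log2 change -1.77, adjusted p = 0.215). Vpreb3, made by mature B cells as well, was at 0.130, 1.14 and 2.68 FPKM in HDCKO and 0.0303 to 0.105 in WT (log2 change 1.37, adjusted p = 0.0739). Cd93, also an endothelial gene, fell by 1.75 (adjusted p = 0.0165).

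The genes with the most similar profiles, by the root mean square difference of centred log2(FPKM + 0.5) values over the 6 libraries, were mostly other lymphocyte genes. Nearest to Cd79a, Cd79b and Ms4a1 was Fcmr, the receptor for IgM (differences 0.38, 0.30 and 0.29), at 0.0195, 13.7 and 35.1 FPKM in HDCKO. Nearest to Pax5 was H2-Oa (0.09), nearest to Cr2 was Bank1 (0.09), nearest to Blk was Btla (0.12), and nearest to Cd22 was Cxcr5 (0.17), the receptor that guides B cells into follicles. Nearest to Mzb1 was Bank1 (0.32). Jchain again stood apart: its neighbours were Lat (0.27), an adaptor of T cells, Ccl22 (0.27), a chemokine of dendritic cells and macrophages, and Ucp1 (0.28), the uncoupling protein of brown fat, and none of these belonged to the B cell lists.

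T cell markers moved with the B cell genes across libraries. Of the pan-leukocyte, macrophage, neutrophil, red blood cell and fibre markers, 0 had HDCKO replicates 2 and 3 as their highest libraries. This pattern was present in 5 of 8 plasmacytoid dendritic cell markers and 2 of 6 adipocyte markers. All 15 T cell markers had it (5.92% of all genes tested). Their summed level was 0.749, 62.2 and 113 FPKM in HDCKO and 2.76 to 4.59 in WT. Of the 15, 3 were listed at 0 in HDCKO replicate 1. Of 14 tested, 0 were called higher (0 at an unadjusted p under 0.05), against 17.8% of all genes. Without HDCKO replicate 1, 14 were called higher (17.3% of all genes), and with median-of-ratios scaling 1 (27%). Of these 14, 12 reached the level for testing only through HDCKO replicates 2 and 3. For these 12, the pattern and the call without HDCKO replicate 1 were largely set in advance. Cd8a, of cytotoxic T cells, was at 0, 2.83 and 5.39 FPKM in HDCKO and 0.0200 to 0.0431 in WT. Cd8b1, its partner chain, was at 0, 4.30 and 7.82 FPKM in HDCKO and 0 to 0.0182 in WT.

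Lymph node stroma and high endothelial venule markers, 8 in number, summed to 48.2, 270 and 196 FPKM in HDCKO and 69.4 to 118 in WT. Of 5 tested, 0 were called higher in the limma fit (0 at an unadjusted p under 0.05), against 17.8% of all genes, and 2 without HDCKO replicate 1, against 17.3%. Glycam1, a mucin of high endothelial venules through which lymphocytes enter lymph nodes, was at 0.0869, 96.0 and 44.0 FPKM in HDCKO and 3.46, 3.51 and 1.21 in WT (log2 change 2.18, adjusted p = 0.337). Chst4, which sulphates such mucins and was named after its values were seen, was at 0, 1.25 and 0.484 FPKM in HDCKO and 0 to 0.0258 in WT. Follicular dendritic cell markers (7 genes) summed to 73.4, 230 and 290 FPKM in HDCKO and 98.7 to 259 in WT. Among them Clu was at 22.8, 83.6 and 126 FPKM in HDCKO and 14.2 to 23.8 in WT. Cxcl13 went the other way, at 1.58, 43.1 and 48.6 FPKM in HDCKO and 157, 59.1 and 15.7 in WT (log2 change -1.70). Mfge8 of this list (-0.06) and Lyve1 of the stroma list (-0.18) hardly changed, and these 3 were named after their values were seen. HDCKO replicates 2 and 3 were the highest libraries for 6 of the 7 follicular and 6 of the 8 stroma markers (5.92% of all genes tested). Madcam1, named after its values were seen, is in both lists and was counted in each. Fcer2a of the follicular list is also among the surface co-receptors above. Of 6 follicular markers tested, 2 reached the level for testing only through these libraries. The part of lymphoid tissue in the B cell values was not tested.

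Plasmacytoid dendritic cell markers (8 genes), which bear on Mzb1, summed to 2.90, 9.17 and 19.0 FPKM in HDCKO and 8.24 to 8.86 in WT; 2 of the 8 were listed at 0 in HDCKO replicate 1. Siglech, a lectin of these cells, rose (0.690, 3.09 and 2.34 FPKM against 0.106 to 0.155; log2 change 1.88, adjusted p = 0.0119), and like Mzb1 it was above WT in HDCKO replicate 1 too. Runx2, which bone and stromal cells also express, fell by 2.20 (adjusted p = 0.0115). Adipocyte markers (6 genes) summed to 708, 3320 and 1723 FPKM in HDCKO and 1217 to 2621 in WT. Red blood cell markers (5 genes) summed to 542, 677 and 270 FPKM in HDCKO replicates 1, 2 and 3 and 1084 to 6780 in WT. Pan-leukocyte genes (8 genes) summed to 29.2, 206 and 542 FPKM in HDCKO and 645 to 1159 in WT, and macrophage markers (9 genes) to 258, 755 and 1960 against 2314 to 2752.

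**Figure D4:**
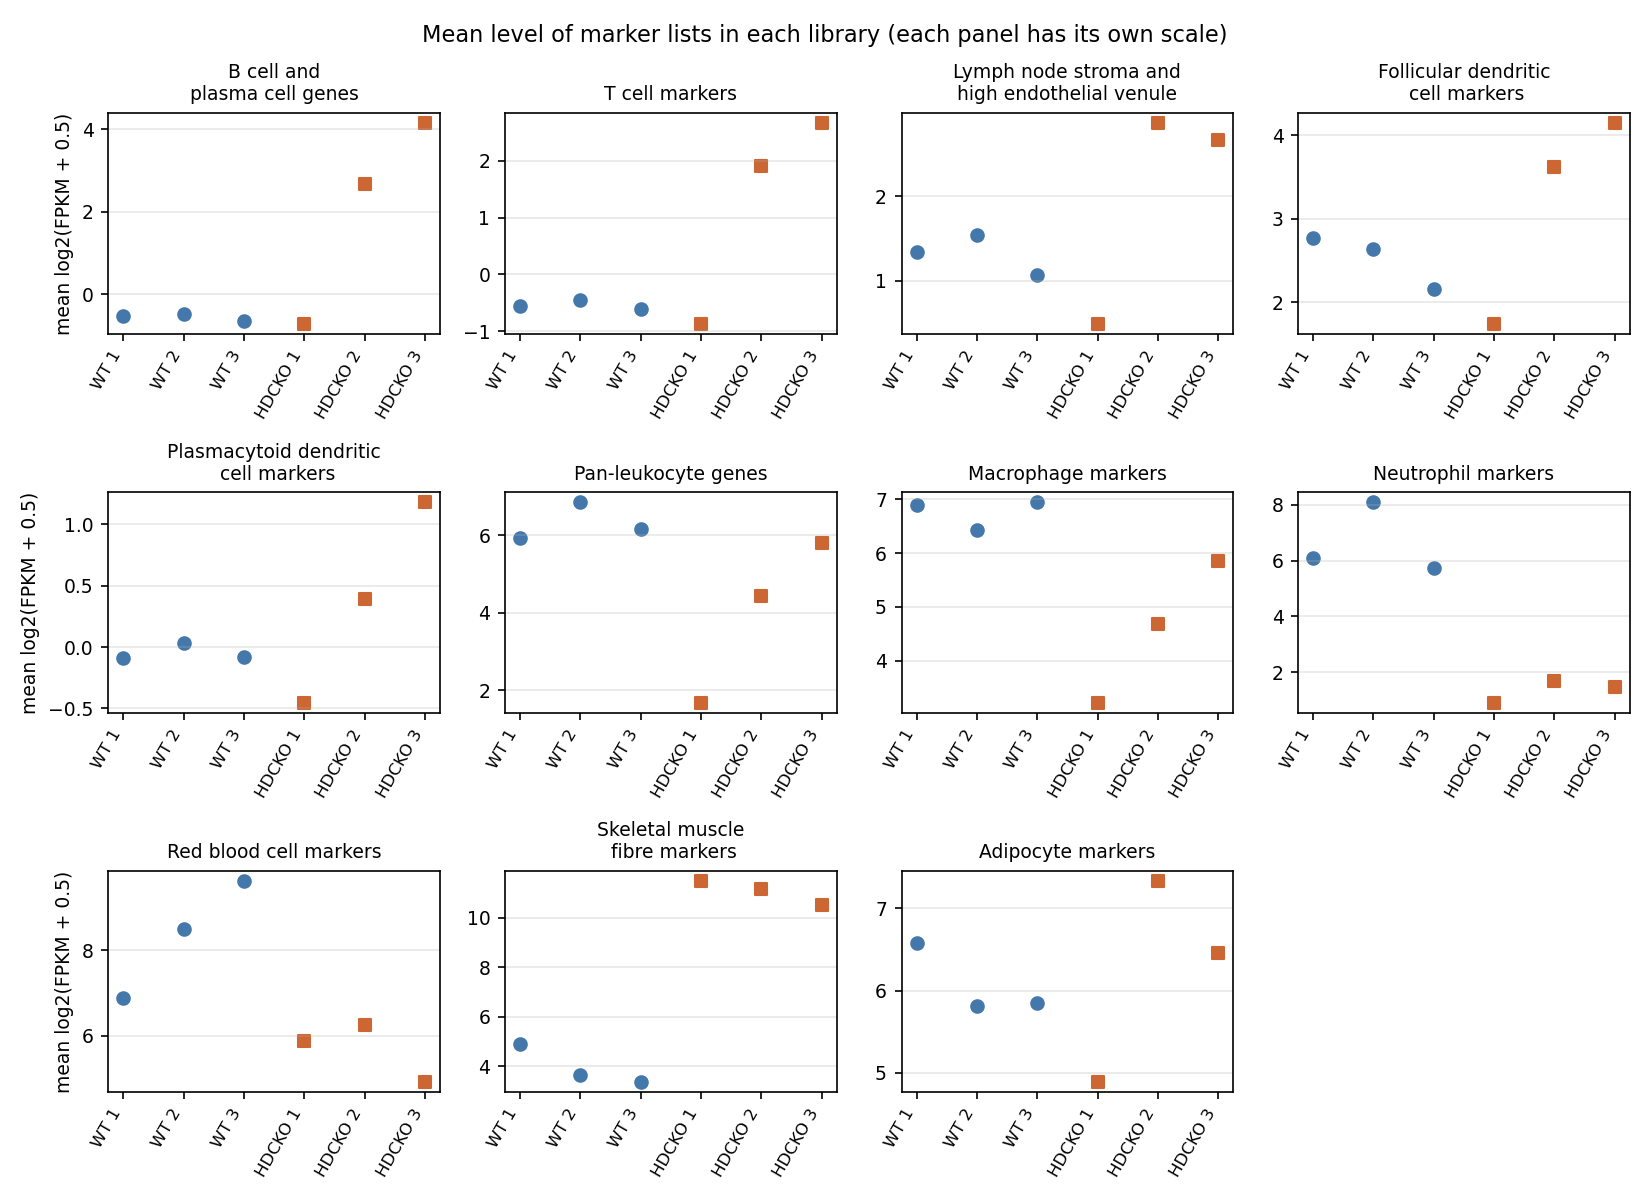
Mean log2(FPKM + 0.5) of 11 marker lists in WT (circles) and HDCKO (squares) libraries, 1 point per library, with a separate vertical scale in each panel. B cell, T cell, lymph node stroma, follicular dendritic cell and plasmacytoid dendritic cell lists are highest in HDCKO 2 and HDCKO 3. Pan-leukocyte, macrophage, neutrophil and red blood cell lists are highest in WT.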

How the data were processed

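Total RNA was extracted with TRIzol and sequenced from VAHTS libraries, per the labels' protocols. The submitters' processing notes name FastQC 0.11.9 for quality checks, and both HISAT2 2.1.0 with HTSeq 0.11.2 and STAR 2.7.11b, on GRCm39. The sources used here do not say which aligner gave the table or whether counting used strand. FPKM values, computed by the authors from counts and deposited as a single table, were the starting point; DESeq2 1.22.2, which the notes name as run on FPKM, was not used here.

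FPKM values were tested with limma 3.58.1 (R 4.3.3), with trend, on log2(FPKM + 0.5), HDCKO against WT, in the 13288 genes averaging 0.5 FPKM or more, with Benjamini and Hochberg's adjustment over all of them and a threshold of 0.05. Fold changes of genes near 0 are damped by the added 0.5. Ratios within a library were tested with exact permutation tests. No columns were identical. Labels give 1 mouse per library, and p-values measure the spread between those mice. Fragments were estimated from the FPKM steps of genes under 0.3 FPKM and GENCODE exon lengths; they entered no test and limit precision for counting error only. Named genes were the 9, Hdc, Ptprc, up to 4 genes of each pathway list and up to 2 of each marker list with the smallest p, and the 3 nearest profiles of each of the 9; Bank1, Fcer2a, Pou2af1, Spib and Cxcr5 entered as nearest profiles. Some genes that this rule takes are not reported here. The fit was also run on simulated data for the same 13288 genes. Called were 26 of 67 genes with a log2 change of 1, 48 of 67 with 2 and 63 of 66 with 4. Of 13088 unchanged genes, 5 were called. The simulated noise was independent with equal spread in both groups, and few genes were changed. In the data many genes were called and the HDCKO libraries of the 9 genes split, so these rates do not carry over to the 9. Members and lists were chosen with earlier results of these data known.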

Additional observations from a re-analysis of the deposited data

How the results depend on the processing

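Each of the 9 B cell and plasma cell genes kept a positive log2 change under all 15 alternatives (0.92 to 5.83). The 9 genes were tested only through HDCKO replicates 2 and 3, and every alternative kept at least 1 of these libraries. Their positive sign was thus largely set in advance and is no separate support. Each ratio to Ptprc stayed higher in HDCKO under 8 alternatives (3.66 to 6.79, every exact permutation p = 0.1). That p is the smallest that 6 or 5 libraries allow, so its repeat cannot show stability. Where a gene lay far below 0.5 FPKM the ratio mostly followed Ptprc, so its direction is no separate support either. Of the 9 genes, 1 was called higher on the deposited values, 0 with no filter (1 at an unadjusted p under 0.05), 9 with sample weights, and 0 to 9 when 1 library was left out; 0 were called lower throughout. The weights did not converge and put nearly all weight on HDCKO replicate 2 (1106, against 0.0517 to 0.971 elsewhere), so that fit rests on 1 library. The cause of the other shifts was not tested, save that fewer samples or more genes entered.

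Genes called higher numbered 2362, 3593 with median-of-ratios scaling and 1785 to 2475 with a library left out. Genes called lower numbered 5658, 3355 with median-of-ratios scaling and 2502 to 7266 with a library left out. Other B cell pathway genes called higher were 6, but 2 with no filter, 11 after quantile normalization, 24 with sample weights and 2 to 22 with a library left out. Those called lower were 21, but 32 with sample weights and 9 to 32 with a library left out. The ratio of Jchain to Cd79a stayed lower in HDCKO (-2.44 to -0.69). Fabp4, an adipocyte marker with a log2 change of -0.47 that did not pass, was at 0.082 with median-of-ratios scaling, 0.25 with sample weights and -0.89 to 0.042 with a library left out (0.042 without HDCKO replicate 1). These pathway counts and other named genes were run under alternatives added after the data were seen.

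With the mouse number as a replicate block, 1 of the 9 genes was again called higher (Mzb1, adjusted p = 0.0409), and no call of the 9 changed. Other pathway genes were called higher in 6 cases and lower in 22 (21 without the block). Among the named genes the block ended the call of Tnfsf13b (adjusted p = 0.0594) and added Tcf3 (0.0494). Deviations of same-numbered libraries correlated at 0.12, 0.07 and 0.14 across genes, and HDCKO replicate 2 was closer to WT replicate 1 (0.11) than to its own number, so the numbers were not taken to pair the mice. Values below 0.5 FPKM rest on few fragments.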
